A study of Mus musculus with 4 samples.

Results

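The genes described here are 10 tight junction genes, the claudins Cldn1, Cldn3, Cldn4, Cldn6, Cldn7 and Cldn12, the tricellular junction genes Lsr and Marveld2, Ocln (occludin) and the scaffold gene Tjp1 (ZO-1). They were chosen by name from a table of 55397 genes, and the choice was made with their values in these libraries known, so that their differences between the groups are a description. No p-value is given for them, and the calls of the fit over all genes appear for them only as counts, from which nothing is read. All 10 passed the minimum mean of 10 normalized counts that left 15809 genes for the test. The libraries come from mouse embryonic fibroblasts (MEFs) of C57BL/6J embryos at E13.5 that carry floxed Prox1 alleles (Prox1 fl/fl), reprogrammed toward induced hepatocyte-like cells for 14 days. All cultures received the 4in1 lentivirus, which encodes the hepatic reprogramming factors, and a Cre or delta Cre lentivirus, and the methods for this kind of reprogramming add an rtTA lentivirus and doxycycline, which the sample labels do not mention. In 2 libraries the recombinase vector was FUW-GFP-Cre, labelled Prox1 KO, and in the 2 control libraries FUW-GFP-dCre, which encodes a delta Cre without recombinase function. The starting MEFs are a mixed population of the embryonic limb, and each library is bulk RNA of a whole culture, so that fewer cells of a type and less RNA per cell cannot be told apart.

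Tight junctions seal the space between neighbouring epithelial cells near their apical surface. Claudins form the strands, each claudin with its own barrier or channel properties, while occludin and the MARVEL domain protein tricellulin (Marveld2) join the strands and angulin-1 (Lsr) recruits tricellulin to the corners where cells meet. ZO-1, the product of Tjp1, lies on the cytoplasmic side and ties the strands to actin. In the liver, tight junctions between hepatocytes close the bile canaliculi off from the blood, and ZO-1 staining was used in the study to recognise hepatocyte-like cells.

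The sequence before the start of the genes was read because several of them moved together. The motif searched was the E-box CAGGTG, which reads CACCTG on the other strand and is the element bound by the Snail and Zeb repressors of epithelial genes. In the RefSeq promoter table for GRCm38.p6, all 10 genes had an entry. In the 250 bases before the start nearest the 5′ end of each gene, 3 of the 10 held the motif, against 17.2% of 32851 windows in the whole table. Counted over any start of a gene, 19.4% of 27025 genes held it. By that count Cldn7 and Ocln join the 3. Lsr held it at 4 places, Cldn4 at 1 place 14 bases before the start and Cldn6 at 1 place 93 bases before it. A second start of Cldn7 had it 97 and 57 bases before the start, and a second start of Ocln 213 and 68 bases before it. No match lay in these windows of Cldn1, Cldn3, Cldn12, Marveld2 or Tjp1. Over a longer stretch that reaches past the start, 20.2% of all windows held the motif. There the entries nearest the 5′ end of Cldn3, Ocln and Marveld2 each held 1 match. The windows of Lsr (chr7:30973470-30973719, minus strand) and Cldn4 (chr5:134946935-134947184, minus strand) are shown as those of the 2 abundant genes with lower reads. The sites of Cldn6 (chr17:23679260-23679289, plus strand, within the first annotated exon) and Cldn7 (chr11:69965312-69965341 and chr11:69965352-69965381, plus strand, within the annotated gene) are shown because these genes had among the largest differences. The Cldn7 sites belong to its second start, and the window nearest its 5′ end held none. Marveld2 had a larger difference than Cldn7 (log2 −1.49 against −1.31), held no match before its start and is not shown. The window of Cldn12 (chr5:5514977-5515226, minus strand) is shown as that of a claudin whose reads hardly moved. The stretches shown were thus picked and do not tell whether the motif goes with the differences. They run 5′ to 3′ on the strand of the gene, and capitals mark the motif on either strand.
Lsr: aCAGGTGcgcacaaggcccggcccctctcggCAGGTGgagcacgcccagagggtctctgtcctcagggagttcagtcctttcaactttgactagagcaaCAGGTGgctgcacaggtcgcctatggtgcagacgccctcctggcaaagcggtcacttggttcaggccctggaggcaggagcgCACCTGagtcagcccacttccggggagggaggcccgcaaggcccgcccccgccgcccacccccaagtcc
Cldn4: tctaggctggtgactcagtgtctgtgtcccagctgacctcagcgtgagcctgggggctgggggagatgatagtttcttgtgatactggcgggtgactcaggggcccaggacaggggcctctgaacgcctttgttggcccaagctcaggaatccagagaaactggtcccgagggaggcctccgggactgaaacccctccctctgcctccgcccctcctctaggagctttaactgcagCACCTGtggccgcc
Cldn6 site: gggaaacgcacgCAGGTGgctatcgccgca
Cldn7 site 1: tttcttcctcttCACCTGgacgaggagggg
Cldn7 site 2: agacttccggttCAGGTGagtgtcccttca
Cldn12: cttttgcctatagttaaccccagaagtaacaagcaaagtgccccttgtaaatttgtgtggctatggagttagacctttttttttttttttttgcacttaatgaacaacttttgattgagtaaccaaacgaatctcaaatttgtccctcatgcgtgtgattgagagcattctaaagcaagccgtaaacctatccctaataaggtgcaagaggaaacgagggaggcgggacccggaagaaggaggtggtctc
A match is a description of the letters and not of a bound site. The grainyhead motif AACNGGTT, its own reverse complement with N for any base, was not found in the windows of the 10 genes, and 0.983% of all windows held it.

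The libraries held between 42469031 and 48524008 reads on genes, recovered from the normalized counts, which are reads divided by the size factor of the library. In the Prox1 KO-labelled libraries, Prox1 itself had 72.7 and 61.6 normalized counts, against 60.6 and 25.5 in the controls. Prox1 reads were therefore not lower where Cre had been given (log2 difference 0.75, adjusted p = 0.0936, and 0.14 without control replicate 2 or 1.36 without control replicate 1), and the floxed exon cannot be read from a value per gene. Over all tested genes, limma with the replicate number as a block called 994 lower and 804 higher. Nothing in the labels states that the replicates came from separate cultures, so that the p-values apply to these libraries only. With the block, they rest on how far the 2 pair differences of a gene disagree, with the variance moderated over all tested genes. The spread between libraries of the same group does not enter them where both pairs share it. An exact permutation test of 2 against 2 libraries cannot give a two-sided p below 0.333. Without the replicate block, limma called 0 genes, which applies to every call below, although 1783 genes had an unadjusted p under 0.05, and DESeq2 with the block called 471.

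Of the 10 tight junction genes, 6 were called lower in the Prox1 KO-labelled libraries and 0 higher, where 6.29% of all tested genes were called lower. These genes were chosen with this comparison known, and nothing is read from that count. By edgeR the count was also 6 (6.48% of all tested genes were called lower). By DESeq2 it was 5 (1.97% of the 13112 genes it tested), with no adjusted p for 1 of the 10. In 6 of the genes both Prox1 KO-labelled libraries lay below both controls and in 2 above them, against 22.6% and 21.8% of all tested genes. The median log2 difference of the 10 was −0.996, and that of all tested genes −0.0022. The genes separated into those at about 50% of the control level or less and those near it, and Cldn3 differed between the replicate pairs.

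**Figure D1:**
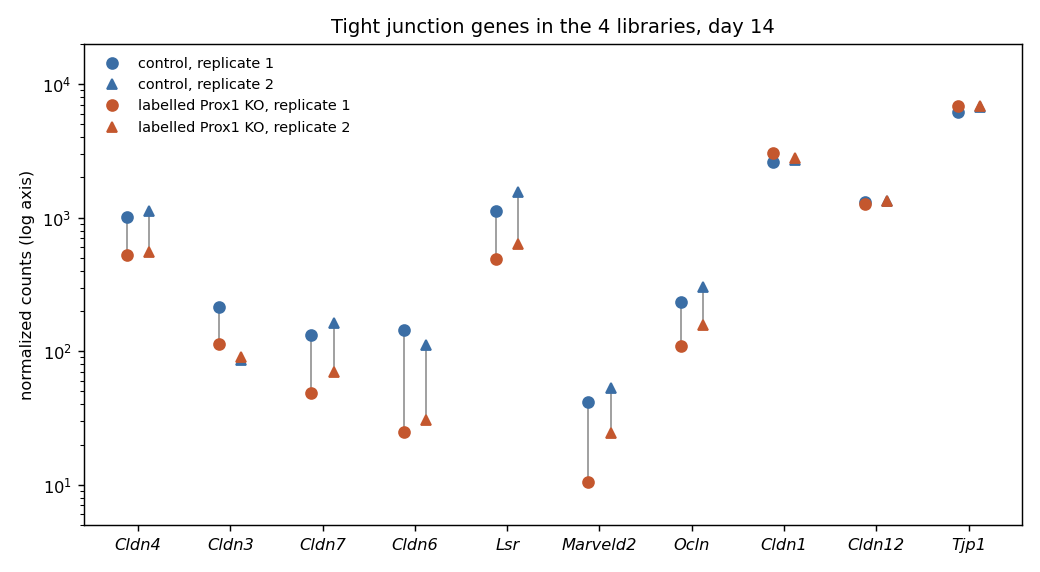
Normalized counts (log axis) of the 10 tight junction genes in each library at day 14, with a grey line joining the control (blue) and the Prox1 KO-labelled library (orange) of the same replicate number; circles are replicate 1 and triangles replicate 2. Cldn4, Cldn7, Cldn6, Lsr, Marveld2 and Ocln lie lower in both Prox1 KO-labelled libraries, while Cldn1, Cldn12 and Tjp1 lie at about the control level.

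Cldn4, a sealing claudin of simple epithelia, lies on chromosome 5 (chr5:134945119-134946934, minus strand). It had 524.8 and 552.3 normalized counts in the Prox1 KO-labelled libraries and 1017 and 1117 in the controls. The groups did not overlap, the replicates of each group lay close together, and both pairs gave about the same difference, 51.6% and 49.5% of the control. The mean of the Prox1 KO-labelled libraries was 50.5% of the control mean, a log2 difference of −0.98.

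Cldn3, the neighbour of Cldn4 (chr5:134986214-134987472, plus strand), also encodes a sealing claudin and starts 39279 bases away with no protein-coding gene between them. The counts were 113.3 and 89.9 in the Prox1 KO-labelled libraries and 213.0 and 86.2 in the controls. Control replicate 1 stood above the other 3 libraries, which lay close together, so that the groups overlapped. Pair 1 gave a log2 difference of −0.90 and pair 2 one of 0.060. The average of −0.42 rested on control replicate 1 and turned to 0.22 when that library was left out. Per length, Cldn4 was 3.31 times Cldn3 in control replicate 1 and 8.98 times in control replicate 2, and 3.21 and 4.26 times in the Prox1 KO-labelled libraries, so that the 2 neighbours did not keep 1 ratio even within the controls.

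Cldn6, a claudin of embryonic epithelia (chr17:23679249-23682446, plus strand), showed the largest difference of the 10. It was covered by 24 and 31 reads in the Prox1 KO-labelled libraries and by 157 and 104 in the controls. As normalized counts these were 24.9 and 30.3 against 144.1 and 110.7, with no overlap. The Prox1 KO-labelled libraries reached 21.7% of the control mean, and the log2 difference was −2.48 in pair 1 and −1.84 in pair 2.

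Cldn7, which binds EpCAM and lies along the lateral membrane as well as in the junction (chr11:69964779-69967885, plus strand), had 48.8 and 69.4 normalized counts against 132.2 and 161.8 in the controls. All 4 values were low, and the groups did not overlap. The mean was 40.2% of the control (log2 difference −1.31), with pair differences of −1.42 and −1.21.

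Cldn1, which builds barriers in skin and liver (chr16:26356642-26371841, minus strand), was among the abundant members. It had 3037 and 2801 normalized counts in the Prox1 KO-labelled libraries and 2607 and 2707 in the controls. Both Prox1 KO-labelled libraries lay above both controls. The mean was 110% of the control and the log2 difference 0.13, or 0.077 without Prox1 KO replicate 1.

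Cldn12, a claudin without the PDZ-binding end by which most claudins attach to ZO-1 (chr5:5489537-5514958, minus strand), had 1262 and 1336 normalized counts against 1303 and 1341. The ranges overlapped, the mean was 98.3% of the control and the log2 difference −0.026.

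Lsr (chr7:30957770-30973464, minus strand), also known as the lipolysis-stimulated lipoprotein receptor, had 494.7 and 639.3 normalized counts in the Prox1 KO-labelled libraries and 1131 and 1569 in the controls. Replicate 2 was higher than replicate 1 in both groups, and the groups did not overlap. The level was 42.0% of the control (log2 difference −1.24), with −1.19 in pair 1 and −1.29 in pair 2. Of the windows of 100 bases in its transcript, 24.8% also occur in the antisense gene Gm4673, which had between 69.8 and 105.4 normalized counts. The libraries are stranded, but the strand setting of the counting is not given in the sources used here, so that a share of the Lsr reads may be assigned to Gm4673 or the reverse.

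Marveld2 (chr13:100595957-100616971, minus strand), the gene of tricellulin, was the least abundant, with 10 and 25 reads in the Prox1 KO-labelled libraries and 45 and 50 in the controls. As normalized counts, these were 10.4 and 24.4 against 41.3 and 53.2. The groups did not overlap, but the 2 Prox1 KO-labelled libraries differed more in proportion than those of any other gene of the 10. The mean was 36.8% of the control (log2 difference −1.49), with −1.89 in pair 1 and −1.09 in pair 2. The difference was −0.91 without Prox1 KO replicate 1 and −2.07 without Prox1 KO replicate 2.

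Ocln (chr13:100496507-100552718, minus strand), which neighbours Marveld2 at a distance of 43238 bases with no protein-coding gene between, had 110.2 and 157.4 normalized counts against 233.2 and 303.4. As for Lsr and Marveld2, replicate 2 was the higher in both groups, and the groups did not overlap. The level was 49.9% of the control (log2 difference −1.01), with pair differences of −1.08 and −0.94. Per length, the ratio of Marveld2 to Ocln was 0.221 and 0.219 in the controls and 0.118 and 0.194 in the Prox1 KO-labelled libraries.

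Tjp1 (chr7:65296165-65527781, minus strand) had 6832 and 6806 normalized counts in the Prox1 KO-labelled libraries and 6231 and 6793 in the controls. The mRNA of the scaffold was the most abundant of the 10 and was at 105% of the control (log2 difference 0.068). The values of the 2 groups did not overlap, but control replicate 2 lay just under both Prox1 KO-labelled libraries and well above control replicate 1. The study itself counted fewer TJP1-positive hepatocyte-like cells after Prox1 deletion. That is a count of stained cells, while the values here are mRNA of the whole culture.

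The order of the levels was compared per kilobase of exon (normalized counts divided by the exonic length). In the controls, Tjp1 stood first with 798 and 870 normalized counts per kb. Lsr followed with 521 and 722, Cldn4 with 560 and 615 and Cldn1 with 539 and 559, and the range of Lsr covered those of Cldn4 and Cldn1. Cldn12 came next with 308 and 317 and Cldn3 with 169 and 68.5. Cldn7 with 67.9 and 83.1, Cldn6 with 83.7 and 64.3 and Ocln with 55.2 and 71.9 overlapped each other and the lower of the Cldn3 values, and Marveld2 was lowest with 12.2 and 15.7. In the Prox1 KO-labelled libraries, Tjp1 was still first (875 and 871), but Cldn1 was now second (627 and 579). Cldn12 with 298 and 316, Cldn4 with 289 and 304 and Lsr with 228 and 294 formed the next group, in which neighbouring ranges overlapped. The ratio of Lsr to Tjp1 per length was 0.653 and 0.831 in the controls and 0.260 and 0.338 in the Prox1 KO-labelled libraries.

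The claudins as a family were summed per kb over 32 claudin genes, 20 of which had a read in any library. The sum was 2032 and 2053 normalized counts per kb in the controls and 1542 and 1535 in the Prox1 KO-labelled libraries. Cldn4 made up 27.6% and 29.95% of this sum in the controls and 18.7% and 19.8% in the Prox1 KO-labelled libraries. The share of Cldn1 was 26.5% and 27.2% in the controls and 40.7% and 37.7% with Cre. Cldn12 also took a larger share, 19.3% and 20.6% in place of 15.2% and 15.5%. Cldn1 and Cldn4 were thus nearly equal in the controls, with a Cldn4 to Cldn1 ratio of 1.04 and 1.10, and unequal in the Prox1 KO-labelled libraries, with 0.461 and 0.526. The shares follow from the levels given above and are no separate measurement.

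**Figure D2:**
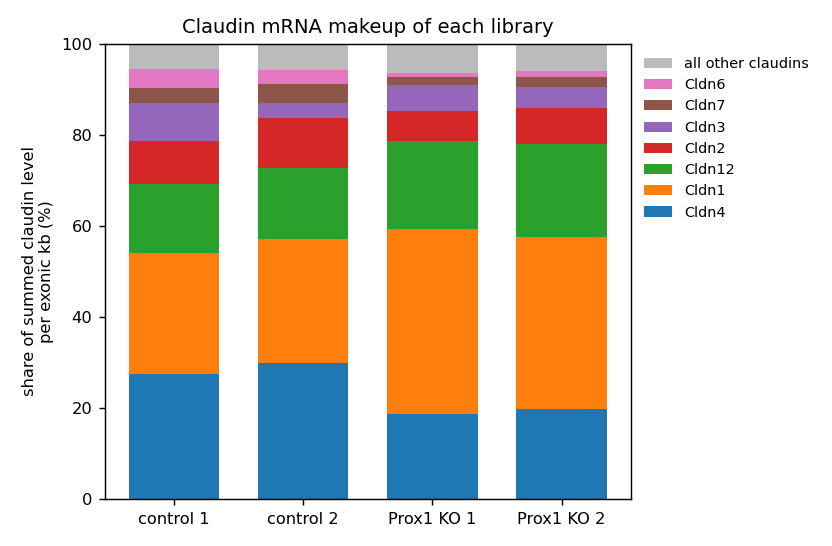
Share of each claudin (% of the claudin level summed per exonic kb) in each library, as stacked bars that add to 100%, with all claudins beyond the 7 named in grey. Cldn4 takes 27.6% and 29.95% of the controls and 18.7% and 19.8% of the Prox1 KO-labelled libraries, and Cldn1 takes the largest single share of the latter (40.7% and 37.7%).

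The lists described from here on were, like the chosen genes, picked with earlier results of these data known. Their adjusted p-values and counts of calls are therefore no independent test. Over all tested genes, limma called 6.29% lower and 5.09% higher. Among the other claudins, 26 were listed and 7 could be tested, of which 2 were called lower and 0 higher. Cldn2, which forms cation and water channels, had 329.4 and 394.9 normalized counts in the Prox1 KO-labelled libraries and 645.4 and 757.9 in the controls (log2 difference −0.95, adjusted p = 4.0e-06). Cldn9, which ends 137 bases from the end of Cldn6 on the opposite strand, had 12.5 and 4.9 against 20.2 and 39.4 (log2 difference −1.72, adjusted p = 0.0320). Cldn9 thus lay lower in both pairs, by −0.65 and −2.78, next to a gene that was also lower in both. Without Prox1 KO replicate 2 the difference of Cldn9 was −1.12. DESeq2 called Cldn2 and gave no adjusted p for Cldn9. Cldn11, the claudin of myelin and the testis, was at 43.6 and 51.8 against 64.3 and 70.3 and was not called (adjusted p = 0.212). Of the other claudins 12 had 0 reads in all libraries, among them Cldn5, the main claudin of endothelium.

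The other membrane proteins of the junction held 6 genes called lower and 0 higher of 11 tested, where 5.09% of all tested genes were called higher. Marveld3, the third MARVEL protein of the junction, had 9.4 and 15.6 normalized counts against 25.7 and 43.6 (log2 difference −1.40, adjusted p = 0.0183). Cxadr, the adhesion receptor CAR, had 627.7 and 805.4 against 958.4 and 1309 (−0.66, adjusted p = 1.6e-05), and Jam2 1048 and 1171 against 1745 and 1558 (−0.57, adjusted p = 8.1e-05). Igsf5, also known as JAM4, had 8.3 and 7.8 against 14.7 and 57.5 (−1.74, adjusted p = 0.0251). The 2 controls of Igsf5 lay far apart, and its difference was −0.79 without control replicate 2 and −2.69 without control replicate 1. In the gene annotation, 788 of its 2523 exonic bases overlap another entry of the same name on the same strand. How reads there were assigned is not known. F11r, the gene of JAM-A, had 3681 and 3761 against 3923 and 4352 (−0.15, adjusted p = 0.0463). Clmp had 630.8 and 883.6 against 713.3 and 1185 (−0.30, adjusted p = 0.0181), values that overlapped between the groups and differed within the pairs, and its difference turned to 0.066 without control replicate 2, and was −0.67 without control replicate 1, −0.057 without Prox1 KO replicate 1 and −0.54 without Prox1 KO replicate 2. Without control replicate 2, F11r was at −0.076 and Cxadr at −0.43. DESeq2 called Cxadr and Jam2 of these 6, and gave no adjusted p for Marveld3 and Igsf5.

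The cytoplasmic plaque and scaffold genes, to which Tjp1 belongs, held 1 gene called lower and 4 higher of 21 tested outside the 10. Cgn, the gene of cingulin, which binds ZO proteins at the junction, had 399.0 and 503.4 normalized counts against 750.9 and 910.1 (log2 difference −0.88, adjusted p = 4.0e-06). The 4 called higher had small differences. Tjap1, whose values overlapped between the groups, had a log2 difference of 0.20 (adjusted p = 0.0124), Amot, the gene of angiomotin, 0.17 (adjusted p = 0.0381), Arhgef18 0.16 (adjusted p = 0.0380) and Amotl1 0.15 (adjusted p = 0.0193). Tjap1 was at 0.069 without Prox1 KO replicate 1, 0.33 without Prox1 KO replicate 2 and 0.13 without control replicate 2. DESeq2 called Cgn and none of these 4.

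Genes of apical polarity, whose products set the position of the junction, held 3 called lower and 2 higher of 17 tested. Crb3, a transmembrane Crumbs protein of simple epithelia, had 57.2 and 103.6 normalized counts against 146.0 and 168.2 (log2 difference −1.02, adjusted p = 0.00257), and its difference was −0.59 without Prox1 KO replicate 1. Pard6b, a partner of atypical protein kinase C, was at a log2 difference of −0.42 (adjusted p = 0.0119), while Pard6g of the same family was at 0.32 (adjusted p = 0.000734). Llgl1 was at −0.15 (adjusted p = 0.0483) and Dlg1 at 0.20 (adjusted p = 0.00605). Without control replicate 2, Llgl1 was at −0.093. DESeq2 called Pard6g alone.

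**Figure D3:**
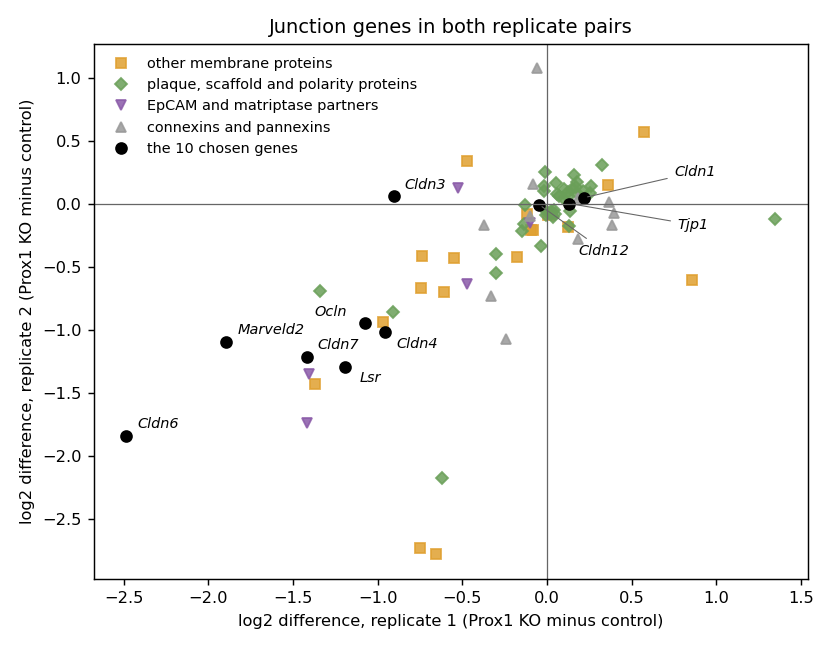
Log2 difference (Prox1 KO-labelled library minus control) of each gene in replicate pair 1 (x axis) and pair 2 (y axis), for the 10 chosen genes (black, named) and the tested genes of the other junction lists (coloured by list). Cldn4, Cldn6, Cldn7, Lsr, Marveld2 and Ocln lie in the lower left with both differences below 0, most plaque, scaffold and polarity genes lie near 0, and Cldn3 lies at −0.90 and 0.060.

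EpCAM holds claudin-7 in a complex and matriptase cleaves EpCAM, and of 5 tested genes of this group 3 were called lower and 0 higher. Epcam had 56.1 and 67.4 normalized counts against 151.5 and 226.7 (log2 difference −1.58, adjusted p = 3.6e-05). Of the 2 inhibitors of matriptase, Spint1 had 50.9 and 78.2 against 136.8 and 200.1 (−1.38, adjusted p = 0.000121) and Spint2 1838 and 1906 against 2547 and 2965 (−0.55, adjusted p = 7.6e-06). The 3 were also called by DESeq2. St14, the gene of matriptase itself, was at −0.12 and was not called (adjusted p = 0.124).

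Of the transcription regulators of junction genes, 11 could be tested, of which 0 were called lower and 2 higher. Grhl3, a grainyhead factor of surface epithelium, had 404.2 and 282.5 normalized counts against 261.6 and 189.5 (log2 difference 0.60, adjusted p = 0.00276), with no overlap. Its difference was 0.34 without Prox1 KO replicate 1 and 0.37 without control replicate 2. Klf4 was at 0.16 (adjusted p = 0.0155), 0.082 without Prox1 KO replicate 1, 0.25 without Prox1 KO replicate 2 and 0.10 without control replicate 2. DESeq2 called neither. Zeb1, a repressor of epithelial genes, had 8191 and 7842 against 8551 and 7913 and was not called (adjusted p = 0.631). Grhl2 and Ovol2, activators of the epithelial programme, had fewer than 10 normalized counts on average and could not be tested.

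Connexins form gap junctions between the same cells, and of 10 tested by limma 0 were called in either direction. DESeq2 also called 0, but gave no adjusted p for 11 of the 20 listed. Of the 10 tested, 4 had an unadjusted p under 0.05 in limma, all lower, where 3751 of all 15809 tested genes had one in either direction. By edgeR 1 was called, Gjb1, a connexin of hepatocytes, with 72.7 and 70.4 normalized counts against 86.3 and 149.0 (edgeR log2 difference −0.69, adjusted p = 0.0492). Gja1, the main connexin of fibroblasts, had 10558 and 10614 normalized counts against 11301 and 11367 (log2 difference −0.098, adjusted p = 0.129). Gja5 was at −0.048 (adjusted p = 0.833) and Gjb5 at 0.19 (adjusted p = 0.244). Panx1, the only pannexin tested, was at 0.12 (adjusted p = 0.448).

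The markers of simple epithelium were lower in the Prox1 KO-labelled libraries, as were Cldn4, Cldn6, Cldn7, Lsr, Ocln and Marveld2. Of 6 tested markers of simple epithelium, 5 were called lower and 0 higher, all 5 also by DESeq2, where limma called 6.29% of all tested genes lower. Epcam is 1 of the 5 and was already counted in the EpCAM and matriptase group. The summed level of the 6 was 8075 and 8931 normalized counts in the Prox1 KO-labelled libraries and 12612 and 17803 in the controls. Cdh1, the gene of E-cadherin, had 655.7 and 826.0 against 1294 and 1974 (log2 difference −1.12, adjusted p = 2.4e-07). Krt18, a keratin of hepatocytes and other simple epithelia, had 2470 and 2702 against 4708 and 6138 (−1.06, adjusted p = 6.3e-08). The part of these markers in the differences of the 10 genes was not tested, but both can be set side by side within each library. As a percentage of the Krt18 count of the same library, Cldn4 was at 21.2% and 20.4% in the Prox1 KO-labelled libraries and 21.6% and 18.2% in the controls. Cldn4 relative to Krt18 thus overlapped between the groups, and so did Ocln (4.46% and 5.82% against 4.95% and 4.94%), Marveld2 (0.421% and 0.904% against 0.877% and 0.867%) and Cldn3 (4.59% and 3.33% against 4.52% and 1.40%).

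Relative to Krt18, the groups of 3 of the lower genes did not overlap. No share of all tested genes is at hand for ratios to Krt18, Cdh1 or Epcam, which were themselves lower in the Prox1 KO-labelled libraries. Nothing is therefore read from which genes overlap. Cldn6 was at 1.01% and 1.12% of Krt18 in the Prox1 KO-labelled libraries and 3.06% and 1.80% in the controls. Cldn7 was at 1.98% and 2.57% against 2.81% and 2.64%, and Lsr at 20.0% and 23.7% against 24.0% and 25.6%, so that the groups of both lay close together without overlap. In the other direction, Tjp1 was at 277% and 252% against 132% and 111% in the controls. Cldn1 was at 123% and 104% against 55.4% and 44.1%, and Cldn12 at 51.1% and 49.5% against 27.7% and 21.9%. The counts of Tjp1, Cldn1 and Cldn12 were near the control level. Their higher ratios thus follow from the lower Krt18 counts and are no separate measurement. With Cdh1 as the reference, Cldn6 was at 3.80% and 3.67% against 11.1% and 5.61%, again without overlap, while Cldn7 was at 7.45% and 8.40% against 10.2% and 8.20% and overlapped. With Epcam as the reference, which itself differed more than Krt18, several genes lay on the other side. Lsr was at 881% and 948% of Epcam against 747% and 692% in the controls, Cldn4 at 935% and 819% against 672% and 492%, and Ocln at 196% and 233% against 154% and 134%, all higher without overlap. Cldn6 stayed lower without overlap, at 44.4% and 44.9% against 95.2% and 48.8%. Which of the genes overlapped between the groups thus depended on the reference gene. These ratios were chosen after the values were seen and have no test.

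**Figure D4:**
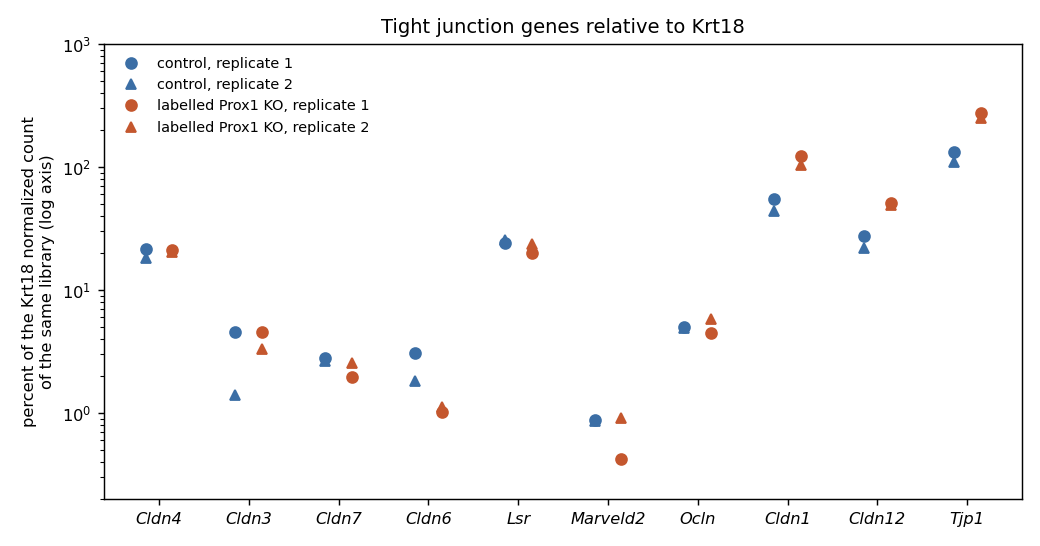
Normalized count of each of the 10 genes as a percentage of the Krt18 count of the same library (log axis), with controls in blue and Prox1 KO-labelled libraries in orange; circles are replicate 1 and triangles replicate 2, and heights can be compared between libraries but not between genes. Cldn4, Cldn3, Marveld2 and Ocln overlap between the groups, and Cldn6 is lower in the Prox1 KO-labelled libraries (1.01% and 1.12% against 3.06% and 1.80%). The ratios of Cldn1, Cldn12 and Tjp1 are higher there, which follows from the lower Krt18 counts.

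The other cell types were checked with their own markers. Of 8 tested hepatocyte markers 6 were called lower and 0 higher, with a summed level of 16667 and 17912 normalized counts against 22660 and 21057. Over all tested genes, 6.29% were called lower. DESeq2 called 4 of these 6, and neither edgeR nor DESeq2 called Alb, the gene of albumin. Of 7 fibroblast markers, 2 were called lower and 0 higher, 1 of the 2 also by DESeq2, and their summed levels overlapped (906956 and 1066480 against 962687 and 1138231). Of 3 tested endothelial markers 1 was called higher and 0 lower, the summed level being 1070 and 949.1 against 751.9 and 647.2, most of it Kdr, while the defining genes Cdh5 and Pecam1 lay between 1.0 and 12.5 normalized counts in all libraries. Of the 2 tested stratified epithelial markers, 3 tested leukocyte markers and 2 tested skeletal muscle markers, 0 were called in either direction by limma, edgeR or DESeq2. In limma, 0, 1 and 2 of them had an unadjusted p under 0.05, all higher, where 3751 of all 15809 tested genes had one in either direction. DESeq2 gave no adjusted p for 4 of the 6 leukocyte markers listed and 5 of the 6 muscle markers listed, more than limma left untested. Summed levels were 420 and 302 against 420 and 326 for stratified epithelium, 306 and 360 against 305 and 285 for leukocytes and 124 and 141 against 106 and 79.8 for muscle. Krt5 and Krt14, defining keratins of stratified epithelium, were at or below 7.3 normalized counts, and Ptprc, which marks leukocytes, at or below 9.8. The part of any of these lists in the differences of the junction genes was not tested.

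The genes most like Cldn3, Cldn4, Cldn6 and Cldn7 were searched among 12898 tested genes that averaged 50 normalized counts or more, by the root mean square difference of log2 values centred over the 4 libraries. Closest to Cldn4 were Ripk4 (0.041), a kinase needed in epidermal differentiation, with 126.8 and 126.1 normalized counts against 227.7 and 258.7, and D630003M21Rik (0.043). Closest to Cldn7 were Slc23a1 (0.033), a vitamin C transporter, with 31.2 and 44.0 against 80.8 and 99.0, and Spint1 (0.10), described above. Closest to Cldn6 were Ggt1 (0.21), gamma-glutamyltransferase, with 17.7 and 29.3 against 94.6 and 89.4, and Tmem252 (0.28). Cldn3 was nearest to Plekhg4 (0.16) and Depp1 (0.16), and Plekhg4 had its highest value in control replicate 1, as Cldn3 did, with 47.8 and 43.0 against 78.0 and 40.5. With 4 libraries such a likeness is a description of the values.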

How the data were processed

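RNA-seq of 4 libraries (2 labelled Prox1 KO, 2 control, grouped by the sample labels) was analysed. The authors mapped 2 × 100 base reads of dUTP libraries to mm10 with STAR, and deposited normalized counts, a signal per gene made by dividing read counts by the DESeq2 size factor. The counting tool and annotation release are not given in the sources used here. A second deposited table of the authors' comparison (fold changes and p-values) was not used. All positive values (100%) were whole multiples (tolerance 0.001) of the value of 1 read, so that reads were recovered, with size factors of 0.939 to 1.09.

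Genes averaging 10 normalized counts or more entered the limma fit on log2(normalized counts + 1), where changes of low genes come out too small (limma 3.58.1, R 4.3.3), with an intensity trend, the replicate number as a block and Benjamini-Hochberg adjustment (threshold 0.05). The study modelled the MEF line as a covariate, and whether the replicate number stands for a line is not stated. Deviations of same-numbered libraries from their group means correlated at 0.402 over tested genes. Libraries of the same group differed beyond sampling noise in 34.2% (Prox1 KO) and 35.4% (control) of genes, so none was taken as a duplicate. Alternatives were no block, edgeR 4.0.16 (quasi-likelihood) and DESeq2 1.42.0 on recovered reads, pseudocounts of 0.1 and 10, no filter, quantile normalization, and each library or pair left out. The scripts were tested on simulated counts. Pathway genes named are those called, filled up to 3 per list by mean level, with genomic neighbours, nearest patterns and markers. Single values of Cdh5, Pecam1, Krt5, Krt14, Ptprc, Grhl2, Ovol2, St14 and Cldn5 and the ratios to Krt18, Cdh1 and Epcam were added after values were seen. The 10 genes and all lists were chosen with earlier results of these data known. Coordinates and lengths are from GENCODE vM21 (GRCm38), which held 55137 of 55397 identifiers.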

Additional observations from a re-analysis of the deposited data

How the results depend on the processing

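The 10 tight junction genes kept their direction, apart from Cldn3 and Cldn12 when single libraries were left out, under the alternatives of tool, pseudocount, filter and scaling. The replicate block decided the calls. With it, limma called 1798 genes, 23 of them in the other junction lists, and 6 of the 10 lower. Without the block limma called 0 genes, 0 list genes and 0 of the 10, although 1783 genes and 6 of the 10 had an unadjusted p under 0.05, and the cause was not tested. DESeq2 with the block called 471 genes (213 higher and 258 lower, the latter 1.97% of 13112), 8 list genes and 5 of the 10. edgeR called 6 of the 10 lower (6.48% of all tested genes). With 1 library left out, the fit is unpaired and the lone library is assumed to vary like the others. It called 0 to 118 genes, 0 to 3 list genes and 0 to 4 of the 10. The median log2 difference of the 10 (−0.996) was −0.97 with a pseudocount of 10, −0.94 after quantile normalization and between −1.14 and −0.83 with a library or pair left out. Cldn3 was at 0.22 without control replicate 1 and −1.07 without control replicate 2. With single libraries left out, directions turned for Clmp (−0.67 to 0.066), Zeb1 (−0.093 to 0.018), Gja5 (−0.29 to 0.20) and Gjb5 (−0.038 to 0.42). Low depth limits Marveld2, Cldn6, Cldn9, Igsf5 and Marveld3, and genes under a mean of 10 were not tested.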
